A study of Homo sapiens with 8 samples.

Results

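The genes described here are 9 classic let-7 targets and oncofetal RNA binders, which were followed because KHSRP promotes the maturation of let-7. They are HMGA1, HMGA2, LIN28A, LIN28B, TRIM71, IGF2BP1, IGF2BP2, IGF2BP3 and NRAS. Their probes were found through the RefSeq accession that the array files give each probe, which yielded 13 of the 42405 non-control probes and 9 of the 20249 genes with a symbol. Of these, 10 probes of 6 genes were bright enough to be tested, and 3 probes of LIN28A, LIN28B and TRIM71 were not.

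The mRNA of KYSE850 cells, a line established from a human esophageal squamous cell carcinoma, was hybridized to 8 Agilent arrays with a single dye. The control siRNA group and the KHSRP siRNA group had 4 arrays each, and the labels name no other genetic change or treatment in either. The study used siRNAs, short RNAs that lower the mRNA they match, at 10 nM, and it had several against KHSRP. Neither the siRNA behind each knockdown array nor whether replicates were separate cultures is given in the labels, so p-values measure the spread between these samples, which may be technical.

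The let-7 microRNAs bind partly matching sites in mRNAs and lower the stability and translation of those mRNAs. Their hairpin precursors are a point of control. KHSRP binds the G-rich terminal loop of some precursors and favors processing by DROSHA and DICER1, whereas LIN28A and LIN28B bind the same precursors and block it, with TUT4 or TUT7 adding uridines that mark the precursor for decay. HMGA2, the IGF2BP mRNAs, LIN28B, TRIM71 and NRAS are known let-7 targets. HMGA2, LIN28B, IGF2BP1 and IGF2BP3 are oncofetal, that is, abundant in embryonic or fetal cells, low in most adult tissues and present again in many carcinomas.

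The mature sequences show what the targets share as a partner. Those of the let-7 family, from RefSeq on build GRCh38.p14, are given with the seed, bases 2 to 8, in capitals.
let-7a-5p: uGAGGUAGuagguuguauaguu
let-7b-5p: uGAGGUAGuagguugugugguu
let-7c-5p: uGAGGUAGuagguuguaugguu
let-7d-5p: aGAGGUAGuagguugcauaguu
let-7e-5p: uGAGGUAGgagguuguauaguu
let-7f-5p: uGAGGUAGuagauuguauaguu
let-7g-5p: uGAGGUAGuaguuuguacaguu
let-7i-5p: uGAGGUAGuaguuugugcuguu
miR-98-5p: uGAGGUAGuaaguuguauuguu

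All 9 names had the seed GAGGUAG, and the others differed from let-7a-5p at 1 to 4 bases, all outside it. Among all 2370 mature names listed, 11 had this seed, the others being miR-4458 and miR-4500. The hairpins below are shown for their loops, let-7a-1 and let-7g having a run of at least 3 G there, in capitals, and let-7e having none. The loop was taken as the bases between the 5p and 3p arms, on the hairpin's own strand.
let-7a-1, chr9:94175957-94176036, plus strand: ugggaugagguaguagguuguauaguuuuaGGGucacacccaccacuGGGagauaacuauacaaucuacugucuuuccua
let-7g, chr3:52268278-52268361, minus strand: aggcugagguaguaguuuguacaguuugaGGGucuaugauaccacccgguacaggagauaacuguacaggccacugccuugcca
let-7e, chr19:51692786-51692864, plus strand: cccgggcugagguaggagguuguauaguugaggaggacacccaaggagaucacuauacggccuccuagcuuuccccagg

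The letters GGG stood in the loop of 10 of 11 let-7 and miR-98 hairpins, let-7e being the exception, and in 161 of all 739 human hairpins with both arms annotated (21.8%). Of the 2 loci of let-7f-5p, only let-7f-1 was among these 11. These arrays measured mRNA and not mature let-7. The study's own measurements of mature microRNAs list let-7b-5p and let-7e-5p among those lowered after KHSRP knockdown. They are not analysed here, so no let-7 level stands beside the values that follow.

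Levels are log2 intensities relative to the 75th percentile of the array, which is set to 0. They are compared between arrays at 1 probe and not between probes. The KHSRP mRNA, read first as a check of the labels, was at 6.03, 5.81, 6.39 and 6.08 on control arrays 1 to 4 (A_23_P16157). On KHSRP siRNA arrays 1 to 4 it was at 2.52, 2.58, 2.88 and 2.85, a log2 fold change of -3.37 (SE 0.16, limma, adjusted p = 5.95e-05). In such bulk RNA, fewer cells with an mRNA and less of it per cell cannot be told apart.

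The arrays also differed in a way the siRNA groups do not explain. The series matrix and the scanner files number KHSRP siRNA arrays 3 and 4 in opposite ways, and which numbering is right is not given in the sources used here. By the scanner numbers, deviations from the group means correlated at -0.69 and -0.67 between control and KHSRP siRNA arrays of number 3 and of number 4. By the matrix numbers they correlated at 0.57, 0.48, 0.86 and 0.86. These numbers are used here to pair the arrays, a choice made from the correlations themselves. By scanner names, control 1 also correlated with KHSRP siRNA 4 at 0.44, 2 with 3 at 0.45, 3 with 1 at 0.40 and 4 with 2 at 0.41. Arrays outside a pair were thus alike too, and the labels name no pairs, so the pairing is not established. Array names in the text are those of the scanner files, and the pairs are control 1 with KHSRP siRNA 1, 2 with 2, 3 with 4 and 4 with 3. An adjusted p with the pair as a block is given beside a result where it alters the call.

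Of the 18761 tested probes, 5.54% were called by limma at an adjusted p under 0.05, 1.92% being higher and 3.62% lower with KHSRP siRNA. Scaling to the array median gave 98 higher and 472 lower calls, against 360 and 679 as reported. With the pairs as a block, 30.1% were called, 14.8% higher and 15.3% lower.

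Among the 10 tested probes, 1 was called, that of HMGA2 described next, and it was higher. Taking for each gene the probe with the highest mean level, 0 of 6 genes were called by limma, where 6.19% of all 12125 tested genes were. At an unadjusted p under 0.05, which 19.6% of tested probes had, limma gave 2 of these 6 genes, HMGA2 and NRAS, and the methods' t-test gave NRAS alone and none after adjustment. With the pairs as a block 3 probes were called, for HMGA2, IGF2BP1 and IGF2BP2, all higher. By the representative probe that block called 2 genes, where it called 33% of all genes, 15.9% being higher. All 10 probes had a log2 fold change over 0, as did 51.8% of all tested probes, although IGF2BP3 turned to -0.011 when arrays were scaled to their median. The KHSRP siRNA array was higher in all 4 pairs at 8 of the 10 probes, as it was at 25.8% of all tested probes. The groups did not overlap at 2 of the 10, both higher, where 14.8% of tested probes did not overlap and 6.09% were higher. The median over the 6 genes was 0.36, beside 0.01 over all tested genes.

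**Figure D1:**
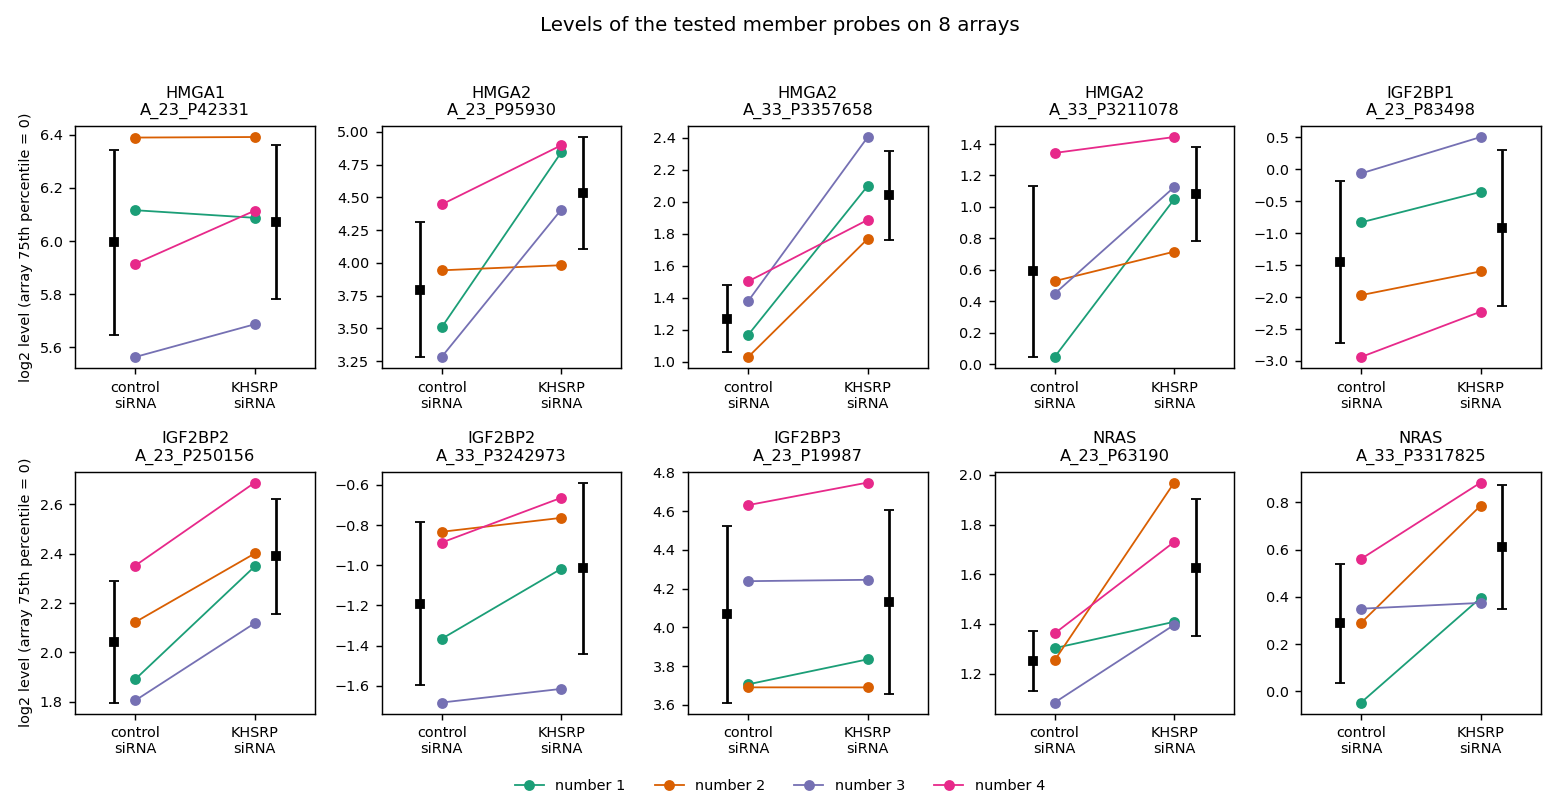
Log2 level (y axis, array 75th percentile = 0) of each tested probe on the control siRNA and KHSRP siRNA arrays, with lines joining arrays of the same series matrix number and black squares with bars for the group mean and SD (4 arrays each). The lines slope up in all 4 pairs for 8 of the 10 probes, and the groups do not overlap at HMGA2 A_33_P3357658 and NRAS A_23_P63190.

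HMGA2, an architectural chromatin protein that bends AT-rich DNA and is among the best known let-7 targets, was the gene with a called probe. It is also on a list that the study drew from mRNAs raised on these same arrays, so its direction is not independent of that choice. The list holds predicted targets of microRNAs outside the let-7 family, which the study reports as lowered by KHSRP knockdown. HMGA2 stands there under miR-301a and also under miR-130b. Whether let-7 or those microRNAs had a part in its rise was not tested. At A_33_P3357658, assigned to transcript NM_001300919, the control arrays read 1.17, 1.03, 1.38 and 1.50. The KHSRP siRNA arrays read 2.10, 1.77, 1.89 and 2.40. Every KHSRP siRNA array lay above every control.

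This HMGA2 probe rose by a log2 fold change of 0.77 (SE 0.17, limma, adjusted p = 0.0385), or 1.71-fold. The exact permutation test gave p = 0.0286 (two-sided), the smallest that 4 arrays against 4 allow. This p restates that the groups did not overlap, as they did not at 14.8% of tested probes. By slide the change was 0.84 on slide 1 and 0.70 on slide 2, and with slide as a block, which called 6.23% of all tested probes, the adjusted p was 0.0282. The call was lost without any 1 of 7 arrays, with adjusted p up to 0.117, and was kept at 0.0499 without KHSRP siRNA replicate 2. A block by the scanner numbers, which called 0.832% of tested probes, ended it (adjusted p = 0.0755), whereas the pairs as a block gave 0.00836.

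The brightest HMGA2 probe, A_23_P95930 (NM_003483), read 3.51, 3.94, 3.28 and 4.45 on control arrays and 4.84, 3.98, 4.90 and 4.41 on KHSRP siRNA arrays. The groups overlapped, with control 4 above 2 of the KHSRP siRNA arrays. It differed by 0.74 on the log2 scale (SE 0.29, limma, adjusted p = 0.207), with a 95% interval from 0.07 to 1.41. The third probe, A_33_P3211078 (NM_001300918), read 0.05, 0.53, 0.45 and 1.34 against 1.05, 0.72, 1.44 and 1.13. Its change was 0.49 (SE 0.28, adjusted p = 0.389), and neither of these probes was called with the pairs as a block. All 3 HMGA2 probes were higher in all 4 pairs.

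HMGA1, the close relative of HMGA2 that is widely expressed in growing cells, differed by less than its SE. Its probe A_23_P42331 read 6.12, 6.39, 5.56 and 5.91 on control arrays and 6.09, 6.39, 6.11 and 5.69 on KHSRP siRNA arrays. The groups differed by 0.07 (SE 0.21, limma, adjusted p = 0.914), with a 95% interval from -0.41 to 0.55. It turned negative on slide 1 alone and when control array 3 or KHSRP siRNA array 2 was left out. Within arrays, HMGA2 minus HMGA1 shifted by 0.66 between the groups (exact permutation p = 0.0857, two-sided). That is 1 of 8 such differences computed after the values had been seen, and after Benjamini-Hochberg adjustment none had a p under 0.457.

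LIN28A and LIN28B, the RNA-binding proteins that block let-7 maturation, were not well above background on any of the 8 arrays. The level of LIN28A lay between -5.60 and -5.01 and that of LIN28B between -5.56 and -4.80. On the same arrays the dimmest probe still well above background lay at -4.55 to -3.74, so both probes gave only an upper bound in each group. TRIM71, a let-7 target and RNA-binding ubiquitin ligase of stem cells, was likewise not well above background on any array. Its signal ran from -5.43 to -3.10, with KHSRP siRNA array 4 the highest, and no fold is given for these genes. HMGA2, IGF2BP1 and IGF2BP3, by contrast, were well above background on all 8 arrays.

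The IGF2BP proteins bind and stabilize mRNAs in the cytoplasm, with IGF2BP2 the member of the family most widely found in adult tissues. IGF2BP2 read 1.89, 2.12, 1.81 and 2.35 on control arrays at A_23_P250156. On KHSRP siRNA arrays it read 2.35, 2.40, 2.69 and 2.12, and the groups overlapped. Its log2 fold change was 0.35 (SE 0.17, limma, adjusted p = 0.312), and with the pairs as a block the adjusted p was 0.0141 (SE 0.06). A block by the scanner numbers gave an adjusted p of 0.491, so the call rests on the numbering. The 4 pairs differed by 0.28 to 0.46.

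The dimmer IGF2BP2 probe, A_33_P3242973, averaged -1.19 ± 0.41 on control and -1.02 ± 0.43 on KHSRP siRNA arrays (SD, n = 4 each), a change of 0.18 (SE 0.26, limma, adjusted p = 0.809). It was not called with the block either (adjusted p = 0.135). Neither probe of this gene was called without a block, and they differed in their call only with the pairs as a block. Both were higher in all 4 pairs.

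IGF2BP3 read 3.71, 3.69, 4.24 and 4.63 on control arrays and 3.84, 3.69, 4.75 and 4.25 on KHSRP siRNA arrays (A_23_P19987). Arrays 3 and 4, those of slide 2, were the high ones in both groups. Between the groups it differed by 0.06 (SE 0.29, limma, adjusted p = 0.948), with a 95% interval from -0.60 to 0.72 that narrowed with the pairs as a block to -0.09 to 0.22. Its sign was set by the scaling and by single arrays.

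**Figure D2:**
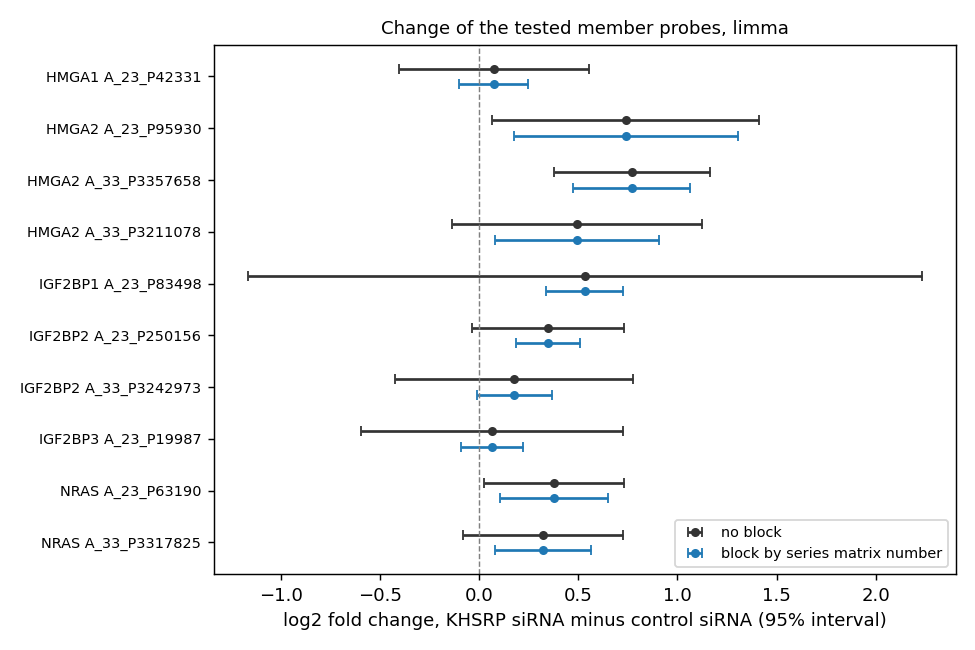
Log2 fold change (x axis, KHSRP siRNA minus control siRNA, 4 arrays each) of the tested probes, as a point with its 95% interval from limma without a block (black) and with the series matrix number as a block (blue). The interval of IGF2BP1 spans -1.17 to 2.23 without the block and 0.34 to 0.73 with it, while that of HMGA2 A_33_P3357658 lies above 0 in both.

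IGF2BP1, the member of the family most confined to fetal tissue, varied more within each group than between the groups. At A_23_P83498 it read -0.83, -1.97, -0.06 and -2.94 on control arrays. On KHSRP siRNA arrays it read -0.35, -1.60, -2.23 and 0.51. Arrays 1 and 3 of the controls and 1 and 4 of the KHSRP siRNA group were the high ones, and the 8 arrays spanned 10.9-fold. The SD within groups was 1.25, above that of 99.0% of tested probes. The probe had 10 spots on each array, with an SD of 0.10 to 0.24 between spots of 1 array.

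The log2 fold change of IGF2BP1 was 0.53 (SE 0.75, limma, adjusted p = 0.792), and it ran from 0.04 to 0.99 as single arrays were left out. With the pairs as a block the SE was 0.08 and the adjusted p 0.00729, the 4 pairs differing by 0.37 to 0.71. The call thus rests on the numbering: with a block by the scanner numbers the adjusted p was 0.85.

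A list of 9 squamous or epithelial markers varied with IGF2BP1 over the arrays, EPCAM in the opposite direction and KRT13 and CDH1 less closely. All 9 were tested and 0 were called by limma, 1 of them having an unadjusted p under 0.05. With the pairs as a block 2 were called, where that block called 33% of all tested genes. They were CDH1, higher (log2 fold change 0.55, adjusted p = 0.135, with the block 0.0116), and DSG3, lower (-0.74, adjusted p = 0.724, with the block 0.00432). The summed linear level of all 9 markers, in multiples of the array's 75th percentile, was 64.7 to 239 in controls and 58.3 to 286 with KHSRP siRNA. Across the 8 arrays Pearson's r of the log2 level of IGF2BP1 was 0.93 with KRT5, 0.96 with KRT6A, 0.88 with TP63, 0.96 with SOX2 and -0.98 with EPCAM, as a description of arrays that share their pairing. For KRT14, DSG3, KRT13 and CDH1 it was 0.92, 0.84, 0.67 and 0.57. KRT5 ran from 2.92 to 5.98, lowest on control 4 and KHSRP siRNA 3, the arrays where IGF2BP1 was lowest too. The part of these markers in the IGF2BP1 values was not tested. Of 8 fibroblast, endothelial and leukocyte markers, 5 were not well above background on any array and 1, COL1A1, was tested, with a change of 0.07. The linear level of COL1A1 alone was 0.183 to 0.378 in controls and 0.175 to 0.453 with KHSRP siRNA. The untested markers are not in this range.

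**Figure D3:**
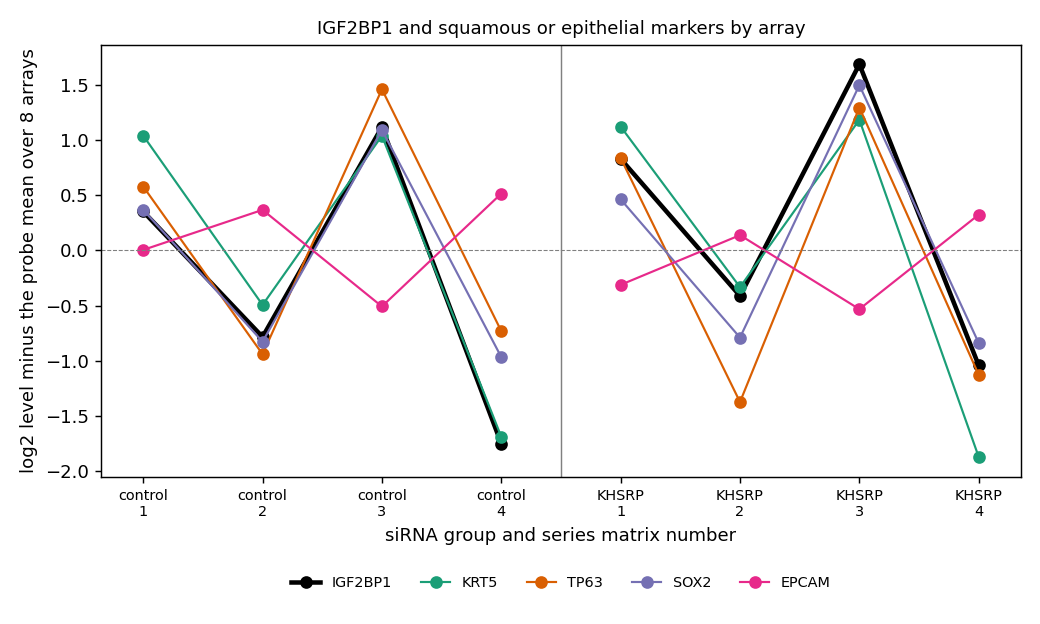
Log2 level minus the probe's mean over the 8 arrays (y axis) for IGF2BP1 and 4 markers on each array (x axis, siRNA group and series matrix number, so that KHSRP 3 is scanner array 4 and KHSRP 4 is scanner array 3). IGF2BP1, KRT5, TP63 and SOX2 are high at numbers 1 and 3 and low at 2 and 4 in both groups, and EPCAM runs the other way.

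The genes most like IGF2BP1 over the 8 arrays, listed after its values were seen, were ZNF331, CBR1 and PELI2 with r from 0.996 to 0.997. ENHO, KRT23 and AQP7P3 were the most opposite, with r from -0.997 to -0.995. The genes most like HMGA2 A_23_P95930 were MFGE8 (r = 0.97), WNT3A (0.95) and CAMTA1 (0.94). Those most like IGF2BP2 were PACS2, GSTZ1 and LDAF1, each with r of 0.99. Between the genes themselves, HMGA2 and IGF2BP2 had an r of 0.85, and IGF2BP1 and IGF2BP2 one of -0.57. These correlations mix the spread within and between the groups over the same arrays. The most alike and most opposite genes were picked from 12124 compared over only 8 arrays, and shared regulation was not tested.

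NRAS, a small GTPase that relays growth factor signals and a let-7 target, did not overlap between the groups at its brighter probe. At A_23_P63190 the control arrays read 1.30, 1.25, 1.08 and 1.36, and the KHSRP siRNA arrays read 1.41, 1.97, 1.73 and 1.40. The lowest KHSRP siRNA array lay just above the highest control. NRAS differed by 0.38 on the log2 scale (SE 0.15, limma, adjusted p = 0.221), with an exact permutation p of 0.0286 (two-sided, the smallest possible). That permutation p restates that the groups did not overlap, as they did not at 14.8% of tested probes. With the pairs as a block the adjusted p was 0.0508. The other probe, A_33_P3317825, read -0.05, 0.29, 0.35 and 0.56 against 0.40, 0.79, 0.88 and 0.37, and changed by 0.32 (SE 0.18, adjusted p = 0.381). Both probes were higher in all 4 pairs, and neither was called in any of the alternatives.

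The genes most like NRAS, of 12124 compared, were CRCP, CREB3L2 and AGPAT4, each with r of 0.99 over the 8 arrays. Of 4 other RAS genes, 0 were called by limma and 0 had an unadjusted p under 0.05. The pairs as a block called 2 lower, MRAS and HRAS, where that block called 33% of all tested genes. The log2 fold change was -0.60 for MRAS (adjusted p = 0.4005, with the block 0.00887) and -0.23 for HRAS (0.518, with the block 0.0333). RRAS2 was at -0.018 (adjusted p = 0.985), and its sign turned under quantile normalization, under the 75th percentile of detected probes, on slide 1 alone and without several single arrays. Within arrays, NRAS minus HRAS shifted by 0.61 between the groups (exact permutation p = 0.114, two-sided), a test that ignores the pairs and was not passed. The difference was higher in all 4 pairs, by 0.31 to 0.94.

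A wider list of 37 let-7 targets gives the pathway around these genes. Of the 30 tested, 15 were higher and 15 lower, with a median log2 fold change of -0.0059 beside 0.01 over all tested genes. By limma 3 rose and 1 fell, where 2.14% of tested genes rose and 4.06% fell. With the pairs as a block 11 were called higher and 7 lower, where that block called 33% of all tested genes, 15.9% being higher.

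ARID3A, a DNA-binding protein of the ARID family, rose by 0.99 (SE 0.14, adjusted p = 0.00729), from controls at 0.57 to 1.18 to KHSRP siRNA arrays at 1.71 to 1.88. Its relative ARID3B rose by 0.84 (SE 0.17, adjusted p = 0.0246), from a mean of 0.84 to one of 1.68, and its groups did not overlap. HIC2, a zinc finger repressor, rose by 0.76 (SE 0.15, adjusted p = 0.0239), and a second HIC2 probe was at 1.25 (adjusted p = 0.0594, with the pairs as a block 0.00286). RRM2, a subunit of ribonucleotide reductase, fell by 0.74 (SE 0.14, adjusted p = 0.0193). ARID3A was called without each single array, ARID3B and RRM2 without 3 of the 8 and HIC2 without 2 of the 8. ARID3A, HIC2, IGF1R and DICER1 are on the same study list as HMGA2, so their direction is not independent. In that list IGF1R stands under miR-21 alone and ARID3A under miR-130b alone. HIC2 and DICER1 stand under both of these and under miR-301a.

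The next largest changes of the list did not pass without the block. CCNJ, a cyclin, was at 1.06 (SE 0.27, adjusted p = 0.0626, with the block 0.002), and its groups did not overlap. IGDCC3 was at 0.98 (adjusted p = 0.279, with the block 0.027) with KHSRP siRNA array 3 far above the others, and at 0.66 without that array. IGF1R, the receptor of insulin-like growth factors, was at 0.79 (adjusted p = 0.236, with the block 0.00464).

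**Figure D4:**
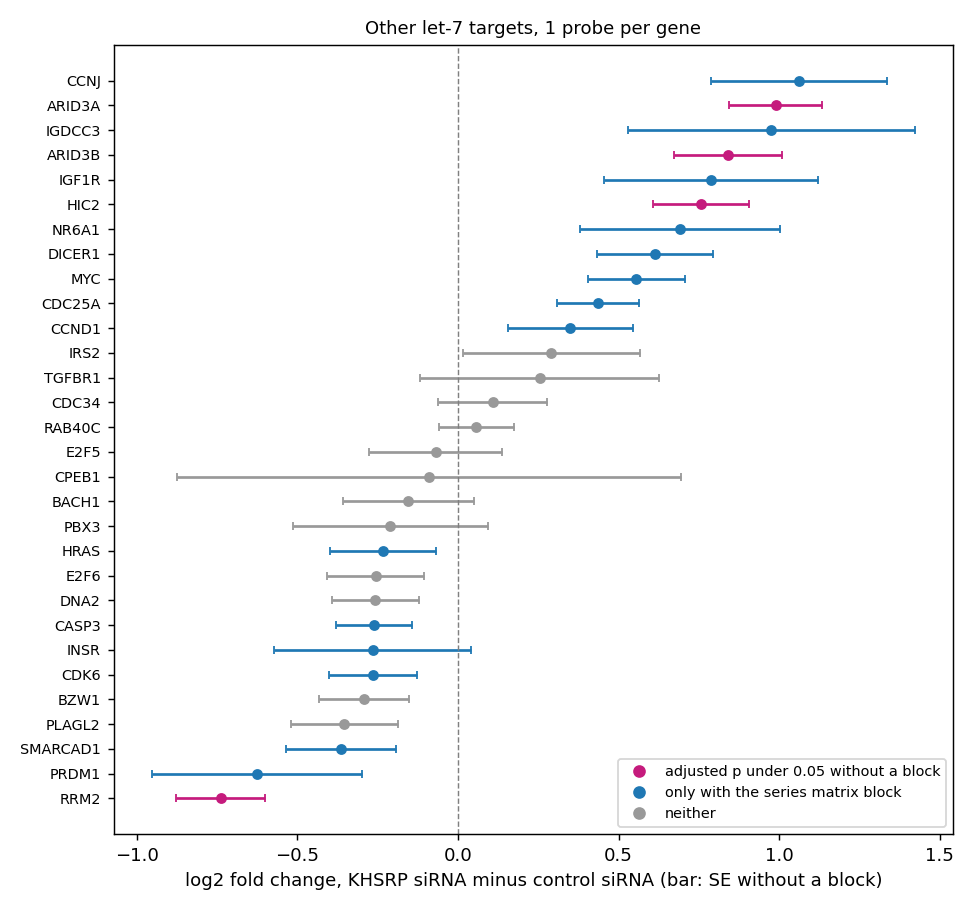
Log2 fold change (x axis, KHSRP siRNA minus control siRNA, bars for the SE without a block, 4 arrays each) of 30 further let-7 targets, sorted, 1 probe per gene. Points span -0.74 for RRM2 to 1.06 for CCNJ on both sides of 0, with 4 called without the block (magenta).

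The 10 genes that process or modify let-7 precursors were all tested, 4 being higher and 6 lower with a median of -0.04. HNRNPA1, which binds the loop of let-7a-1 and opposes KHSRP there, fell by 0.56 (SE 0.11, limma, adjusted p = 0.0241) at 1 probe, while its other tested probe was at -0.03 (adjusted p = 0.978) and the call stood without 1 of the 8 arrays. DICER1, which cuts the precursor and is itself a let-7 target, was at 0.61 (adjusted p = 0.0931, with the pairs as a block 0.00289). TUT7 was at -0.47 (adjusted p = 0.141, with the block 0.0071). XPO5, the export receptor of precursors, was at -0.43 (adjusted p = 0.121, with the block 0.00938), but its other tested probe was at 0.24. The block called 1 of these genes higher and 4 lower, beside its 33% of all tested genes.

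Transcripts that hold let-7 hairpins were 9, of which 7 had a probe and 4 were tested. None was called by limma, and 0 had an unadjusted p under 0.05. MIRLET7BHG was at -0.44 (adjusted p = 0.4001, with the pairs as a block 0.0152) and WDR82 at 0.28 (0.467, with the block 0.0269). A second WDR82 probe was at 0.39 (adjusted p = 0.0552, with the block 0.00993). MIR100HG was at -0.16 (0.873), and its other tested probe at 0.11 (0.79). These arrays read the host transcripts and not the hairpins cut from them.

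Of 10 mRNAs known to be bound by IGF2BP proteins, 8 were tested, with 5 higher, 3 lower and a median of 0.06. None was called by limma, 2 having an unadjusted p under 0.05. With the pairs as a block 3 were called higher, where that block called 33% of all tested genes, 15.9% being higher. MYC, a transcription factor that is also in the wider let-7 list, was at 0.56 (SE 0.15, adjusted p = 0.0728, with the block 0.00396), and its groups did not overlap. IGF2 was at 0.30 (adjusted p = 0.179, with the block 0.0171) and GLI1 at 0.71 (adjusted p = 0.402, with the block 0.0146).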

How the data were processed

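The authors scanned the arrays, and the deposited scanner values are background-subtracted linear fluorescence intensities, extracted with Agilent Feature Extraction 11.5.1.1 per the file headers (12.6 in the submitters' processing notes). The authors also deposited log2 values in a series matrix, which were used as an alternative. Control spots and spots marked as outliers were left out, and the rest were averaged per probe on the log2 scale and shifted to each array's 75th percentile. Between 45.1% and 49.4% of probes were well above background on an array, and 4 arrays per group limit the precision. The test took in probes that passed the scanner's background criterion in a share of at least 0.5 of their spots on every array of 1 group.

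Two-sided moderated tests without a block came from limma 3.58.1 (R 4.3.3), and p-values were adjusted by Benjamini-Hochberg across every tested probe. The procedure without a block was tested on simulated data whose arrays varied independently, unlike these arrays. Fits with a block were not tested in that way. A probe was called at an adjusted p under 0.05. Single values and within-array differences used exact permutation tests in Python 3.11.15. Symbols came from RefSeq (GRCh38.p14) for 27241 of 42405 probes. A gene with several tested probes was represented by the one with the highest mean level. Correlations of deviations from group means, given with the results, were used to choose the numbering by which arrays were paired.

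1 gene of the further lists is not reported here. Named were KHSRP, the 9 genes with all their probes, in each further list the called genes and the 3 next largest changes, and the 3 genes most alike to HMGA2, IGF2BP2 and NRAS. The genes and lists were chosen with earlier results of these data known. Alternatives covered scaling, normexp background correction (offset 50, on median spot brightness), the series matrix, the filter, blocks by slide and by replicate number, robust variance with an intensity trend, weights per array, the methods' t-test, the probe standing for a gene, each slide alone and each array left out.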

Additional observations from a re-analysis of the deposited data

Results flagged for a closer look

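In 63 groups of 4 arrays, 2 had 1 array far from the other 3, where chance flags about 1 group in 20. The gap to the nearest array was 0.832 of the group's range for KHSRP A_24_P134235, where control siRNA replicate 2 read -1.86 and the next array -1.10. This probe was well above background on the 4 controls and on 0 of 4 KHSRP siRNA arrays, so only a bound is given, at least 5.83-fold lower. Its limma adjusted p of 0.0147 compares the controls with background-level values and does not measure the size of the fall. Without control siRNA replicate 2 the log2 fold change was -2.88 (adjusted p = 0.0322). The call was kept in 17 of 22 alternatives. It was lost with normexp background correction, where the log2 fold change was -0.54. It was also lost with a block by the scanner numbers (adjusted p = 0.0724) and without control siRNA replicate 1 (0.055).

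For IGDCC3 the gap was 0.915 of the range, with KHSRP siRNA replicate 3 at -0.33 and the next array at -1.53. The change was 0.98 with that array (limma, adjusted p = 0.279) and 0.66 without it (0.465).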

How the results depend on the processing

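Of 233 values of the tested probes under 24 alternatives, 211 kept their direction and their side of the threshold, 13 of HMGA2 A_33_P3357658 lost the call, 2 gained it with the series matrix numbers as a replicate block (IGF2BP1 and IGF2BP2), and 7 changed sign. The calls of the main comparison were 1039 probes, 1 probe of the genes described, 0 of these genes, 4 further let-7 targets, 1 precursor gene, and 0 host transcripts, RAS paralogs and IGF2BP clients. With the series matrix numbers as a replicate block they were 5644, 3, 2, 18, 5, 2, 2 and 3. With the scanner numbers as a replicate block, 156 probes and 0 of every list were called. Within slide 1 and within slide 2, each with 2 arrays a group, 0 probes were called, and KHSRP was at -3.37 in each, without a call. Slide as a block called 3 precursor genes. The array median called 570 probes, 0 of the 10 tested probes, 1 further target and 0 precursor genes, and no filter on dim probes 319, 0, 1 and 0. The methods' t-test called 0 of the 10 probes after adjustment, the mean of a gene's probes called 0 precursor genes, and quantile normalization and array weights called 1 IGF2BP client each, MYC.

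Leaving out single arrays gave 491 to 741 probes, 0 to 1 of the 10 tested probes, 1 to 4 further targets and 0 to 1 precursor genes, and KHSRP from -3.46 to -3.27. The change of HMGA1 then ran from -0.070 to 0.21, of IGF2BP3 from -0.14 to 0.25, of RRAS2 from -0.18 to 0.18 and of MIR100HG from -0.38 to 0.094. HMGA1 was at -0.013 and RRAS2 at 0.0044 on slide 1, IGF2BP3 at -0.011 under median scaling, and RRAS2 at 0.0074 under quantile normalization and 0.0020 under the 75th percentile of detected probes. The causes were not tested. The median of all tested probes was 0.01 as reported and from -0.06 to 0.03 under the other scalings. For dim probes, signal over background limits what could be read.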
